A study of Mus musculus with 23 samples.

Results

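Primary mouse embryonic fibroblasts that carry the L mutation of the glucocorticoid receptor (GR) on both alleles (GRL/L) were compared with cells of the unmodified receptor (GRwt/wt) after vehicle alone, that is, before any dexamethasone (Dex) was given. The 6 libraries were chosen by their labels alone: 3 GRL/L vehicle and 3 GRwt/wt vehicle libraries out of 23 in the series. The study asked how contacts between receptor copies shape its action. In this series it profiled 4 GR genotypes by RNA-seq, each with vehicle and with 10 nM Dex for 5 h. The paper ran this series after one at a higher Dex dose, because GRL/L cells behaved differently at low Dex. The L mutation replaces an isoleucine by alanine at the dimer interface of the ligand-binding domain. The allele was made by CRISPR/Cas9 in zygotes and the line was bred on FVB/NJ. Both groups were of this strain, were kept in serum-containing medium and received solvent for 5 h. Every culture of a genotype came from a different mouse, and the steroid content of the serum was not given, so "without ligand" here means without added Dex.

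GR is a nuclear receptor that stays largely in the cytosol with chaperones until a glucocorticoid binds, and then activates or represses genes in the nucleus. Fibroblasts make their own cholesterol through the mevalonate pathway, whose genes are switched on by SREBP2 when sterols are scarce. They take energy from glycolysis, whose enzymes are under the control of hypoxia-inducible factors and of growth signals. Imprinted genes, expressed from 1 parental allele, are set early in development and many of them act on fetal growth.

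Totals of the 6 libraries ranged from 17989496 to 22063135 counts. GRwt/wt vehicle replicate 1 was unlike the others, since its deviations from the gene medians followed transcript GC content (Spearman rho 0.684 across genes, against 0.0815 and 0.0238 in replicates 2 and 3 and -0.104 to -0.194 in GRL/L). GRwt/wt vehicle replicate 3 held 7885 CPM (counts of a gene relative to the library size after TMM scaling) over 30 macrophage genes, against 56.8 and 31.4 CPM in replicates 1 and 2 and 543 to 1208 CPM in GRL/L. The 14 fibroblast markers summed to 44240 to 65340 CPM in GRwt/wt and 69800 to 74030 CPM in GRL/L. Both unusual libraries were kept. The fit was repeated without replicate 1, without replicate 3 and without both, and together with the fit of all libraries these are called the 4 fits. Values are from all libraries where no other fit is named, and counts for gene lists are also given in the other 3 fits, in this order. A comparison without both rests on a single GRwt/wt vehicle library, which is then assumed to vary like the other groups. In bulk RNA, fewer cells of a type and less RNA per cell cannot be told apart.

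**Figure D1:**
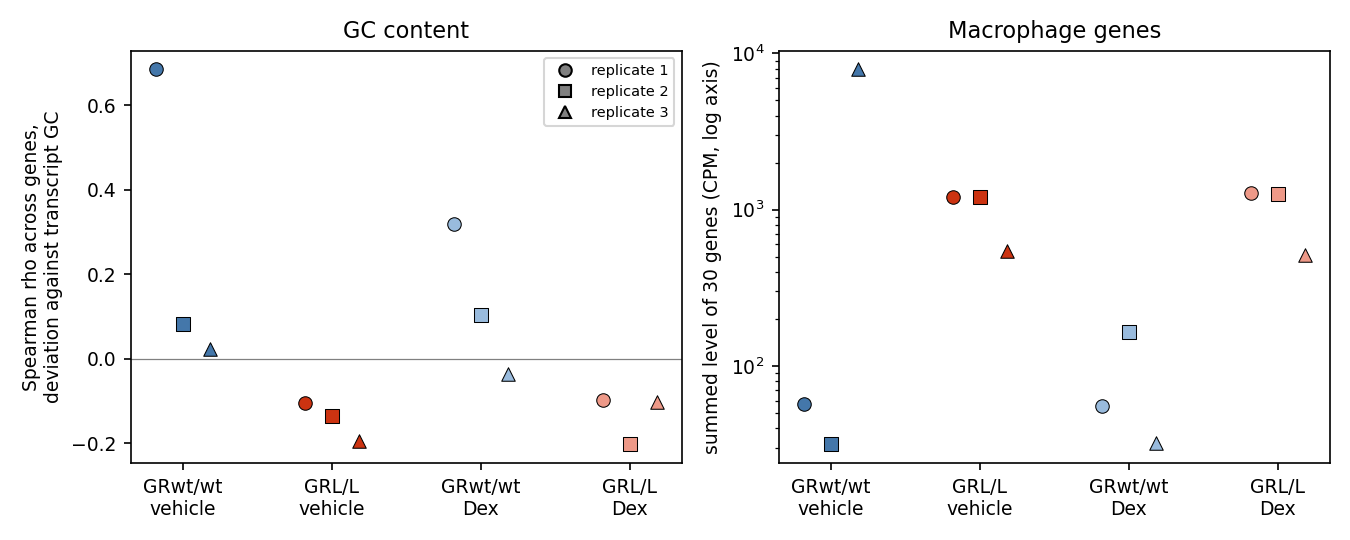
Quality measures of each library of both genotypes in vehicle and in Dex, 1 point per library with the shape marking the replicate number. On the left, the Spearman rho across genes between a library's deviations and transcript GC content, which was highest in GRwt/wt vehicle replicate 1 (0.684). On the right, the summed CPM of 30 macrophage genes on a log axis, which was highest in GRwt/wt vehicle replicate 3 (7885 CPM).

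A gene was called when its adjusted p (edgeR quasi-likelihood test, Benjamini-Hochberg) was at most 0.05 and its log2 fold change (LFC, GRL/L against GRwt/wt) was at least 1 in size. With all libraries 1225 of 15748 genes were called, which is 7.78% (4.93% higher and 2.84% lower in GRL/L). The call rate was 5.89% without replicate 1 (927 genes; 3.81% higher, 2.08% lower), 17.0% without replicate 3 (2677 genes; 12.2% higher, 4.81% lower) and 8.31% without both (1309 genes; 5.54% higher, 2.77% lower). In 38.0% of genes the CPM of the genotypes did not overlap in vehicle (19.6% higher, 18.4% lower), so a lack of overlap alone is common in this comparison. In all 4 fits, 504 genes were called in the same direction (3.2% of genes tested), of which 337 were higher (2.14%) and 167 lower (1.06%) in GRL/L. These 504 genes are described below as called in all 4 fits. Across all genes tested, the median LFC was -0.048. The split of the 1225 calls into 777 higher and 448 lower became 706 and 795 with upper-quartile scaling (median LFC -0.17) and 713 and 784 after a correction of each library for transcript GC content and length. All 23 libraries shared the estimate of the spread. In a fit of the 6 vehicle libraries alone, edgeR called no gene (without adjustment, 2756 genes passed p under 0.05; after it, the lowest p was 0.087), and leaving GRwt/wt replicate 1 out of that fit gave 674 calls.

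Cholesterol synthesis had the largest share of called genes among the lists examined, all of them lower in GRL/L. Of the 25 genes of the pathway, its uptake and its control, 17 were called lower and none higher with all libraries (background 2.84% lower), and all 25 had a negative LFC. The median LFC of the group was -1.63, against -0.048 over all genes. Without replicate 1 there were 21 lower calls, without replicate 3 there were 17, and without both there were 19. In all 4 fits, 16 of the 25 were called lower. Sums of a list include members too low to be tested, of which this group has none. Summed over the group, expression was 2739, 2950 and 2377 CPM in the GRwt/wt vehicle libraries 1, 2 and 3. In GRL/L it was 817, 1344 and 870 CPM. The groups did not overlap, and GRL/L replicate 2 lay highest within its group. It was the only GRL/L vehicle library with Xist, an RNA of the inactive X chromosome, above the Y-linked genes. In GRwt/wt vehicle this was replicate 1. With the sex of the embryo as a covariate, 17 genes of the group were called lower (median LFC -1.65). The mean sum in GRL/L was 0.376 times that of GRwt/wt. For orientation, the sum was 1892 and 2154 CPM in the 2 GRD/D vehicle libraries and 752 to 1026 CPM in the 3 GRD+L/D+L vehicle libraries, which carry the L mutation together with the D mutation.

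The calls covered the pathway from its middle to its last steps. Pmvk, Mvd and Fdps act in the making of farnesyl diphosphate from mevalonate. Pmvk (phosphomevalonate kinase) was at 48.8, 35.8 and 21.6 CPM in GRwt/wt and at 9.27, 11.6 and 7.65 CPM in GRL/L (LFC -1.89, SE 0.34, adjusted p 0.00115). Fdps (farnesyl diphosphate synthase, ENSMUSG00000059743, chromosome 3, 89093588 to 89101959, GRCm38) was at 28.5, 21.9 and 11.9 CPM against 2.28, 5.17 and 2.84 CPM (LFC -2.59, SE 0.56, adjusted p 0.00358). For both genes every GRL/L library lay below every GRwt/wt library, and both were called in all 4 fits. Among the sterol steps, Nsdhl, a sterol dehydrogenase, was at 183, 179 and 87.6 CPM in GRwt/wt and at 24.1, 36.6 and 29.3 CPM in GRL/L. Its LFC was -2.32 (SE 0.44, adjusted p 0.00163) with all libraries and ranged from -2.14 to -2.56 in the other 3 fits. Ebp, the sterol isomerase (ENSMUSG00000031168, chromosome X, 8185329 to 8193512), was at 64.2, 47.6 and 36.5 CPM against 18.9, 20.6 and 17.2 CPM (LFC -1.39, SE 0.21, adjusted p 0.000405). Dhcr7, which makes cholesterol in the last step, was at 114, 74.1 and 73.7 CPM against 29.8, 42 and 30.8 CPM (LFC -1.35, SE 0.23, adjusted p 0.000857). None of these 3 genes overlapped between the genotypes.

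Of the early and regulatory genes, Hmgcs1 and Srebf2 were not called. Hmgcs1, which makes the precursor of mevalonate, was at 51.7 CPM in GRwt/wt replicate 1 but at 350.4 and 326 CPM in replicates 2 and 3, against 116, 205 and 122 CPM in GRL/L. Its LFC was -0.72 (adjusted p 0.299) with all libraries and -1.20 (adjusted p 0.0219) without replicate 1. Srebf2, the gene of SREBP2, had an LFC of -0.87 (SE 0.26, adjusted p 0.023), short of the fold threshold, and -0.47 (adjusted p 0.32) without both libraries. Insig1, which holds SREBP2 back in the endoplasmic reticulum and is itself a target of it, was called lower in all 4 fits (LFC -1.43, SE 0.36, adjusted p 0.00937).

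Promoters of 2 cholesterol genes are shown, those with the smallest p among members called in all 4 fits that had a single window free of annotated exons. They are the 250 bases before the transcription start (RefSeq, GRCm38.p6, minus strand, 5′ to 3′) of Ebp, at chrX:8193513-8193762, and of Mvd (mevalonate diphosphate decarboxylase), at chr8:122443423-122443672. Capitals mark CCAAT on either strand (CCAAT or ATTGG).
Ebp: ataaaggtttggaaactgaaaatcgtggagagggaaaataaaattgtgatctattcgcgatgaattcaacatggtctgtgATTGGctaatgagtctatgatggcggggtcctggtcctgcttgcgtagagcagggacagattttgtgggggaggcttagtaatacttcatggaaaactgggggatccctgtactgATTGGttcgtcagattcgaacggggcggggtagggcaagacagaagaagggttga
Mvd: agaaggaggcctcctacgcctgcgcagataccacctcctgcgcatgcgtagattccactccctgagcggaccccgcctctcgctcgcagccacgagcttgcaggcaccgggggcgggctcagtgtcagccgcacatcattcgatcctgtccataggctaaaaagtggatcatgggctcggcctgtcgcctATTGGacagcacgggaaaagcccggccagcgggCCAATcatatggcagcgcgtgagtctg

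Each of the 2 windows held 2 matches. Over the list, 17 of 25 genes had 20 windows, and 16 of these (80.0%) held CCAAT on either strand, against 33.8% of all 32851 promoter windows. The letters TCACCCC, the core of a sterol regulatory element, were found in 2 of the 20 windows (10.0%, against 4.31% of all windows), but in none of the 15 windows of genes that were called lower. CCAAT was in 11 of these 15 (73.3%). AGAACA, the hexamer of the glucocorticoid response element, was found in 3 (15.0%, against 16.1%) and ACGTG, the core of the hypoxia response element, in 4 (against 16.6% of all windows). Matches were counted on both strands, and matches of different motifs may share bases at their ends. Mvd itself was at 109, 66.7 and 46.5 CPM in GRwt/wt and at 14, 23.6 and 13.8 CPM in GRL/L (LFC -2.11, SE 0.44, adjusted p 0.00268). A match is a description of the letters only.

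**Figure D2:**
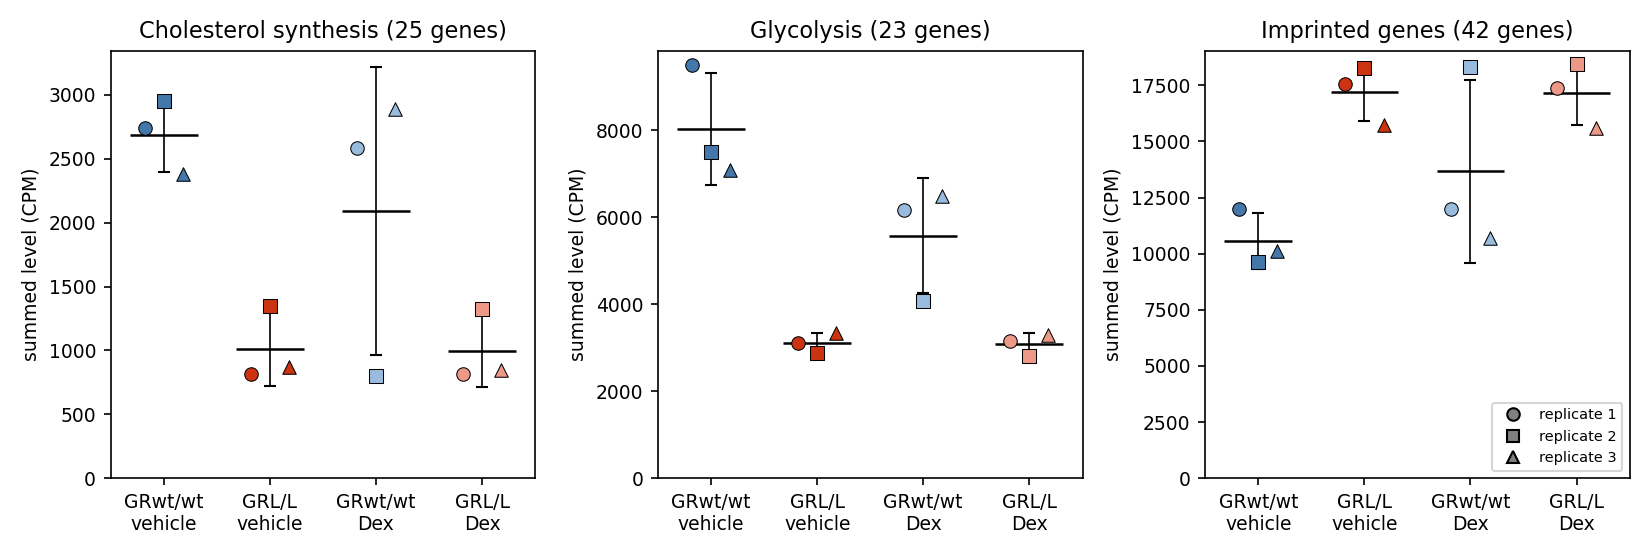
Summed CPM of 3 gene lists in each library of both genotypes in vehicle and in Dex, 1 point per library, with the mean as a line and 1 SD as error bars (n = 3). In vehicle, cholesterol synthesis and glycolysis were lower and imprinted genes higher in every GRL/L library than in every GRwt/wt library, and GRwt/wt Dex replicate 2 sat within or just below the GRL/L levels for cholesterol synthesis and imprinted genes.

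Glycolysis was the other metabolic group in which most genes were called lower in GRL/L. Of 22 genes tested, 14 were called lower and none higher, with a median LFC of -1.17. There were 11 lower calls without replicate 1, 13 without replicate 3 and 11 without both, and 10 genes were called in all 4 fits. The summed expression was 9489, 7498 and 7075 CPM in GRwt/wt and 3109, 2884 and 3326 CPM in GRL/L, so that the groups did not overlap and the GRL/L mean was 0.387 times the GRwt/wt mean. Ldha, the lactate dehydrogenase subunit (ENSMUSG00000063229, chromosome 7, 46841475 to 46855627), was at 868, 836 and 727 CPM in GRwt/wt and at 246, 212 and 284 CPM in GRL/L. Its LFC was -1.71 (SE 0.18, adjusted p 5.88e-05) and stayed between -1.66 and -1.74 in the other 3 fits. Tpi1 (triose phosphate isomerase) was at 568, 442 and 425 CPM against 184, 189 and 199 CPM (LFC -1.32, SE 0.14, adjusted p 5.88e-05). Aldoa, the main aldolase, was at 1729.8, 1354 and 1274 CPM against 526, 479 and 542 CPM (LFC -1.49, SE 0.17, adjusted p 7.76e-05). All 3 genes were separated by genotype, and GRwt/wt replicate 1 was highest in each.

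The largest fall among the glycolytic genes was that of Aldoc, the aldolase of brain. It was at 27.3, 27.9 and 25 CPM in GRwt/wt and at 1.55, 2.42 and 1.86 CPM in GRL/L, with an LFC between -3.76 and -3.82 in all 4 fits. Within the enolases, Eno1 was lower (LFC -1.92, SE 0.23, adjusted p 0.000124), whereas Eno2, the neuronal form, was at 59.1, 50.1 and 53.1 CPM in GRwt/wt and 56.6, 57 and 45.8 CPM in GRL/L, with overlapping groups (LFC -0.03, SE 0.13, adjusted p 0.897). Eno3, the muscle form, was called with all libraries (LFC -1.93, adjusted p 0.0161) but not without replicate 1 (LFC -0.96, adjusted p 0.142), which at 33.8 CPM was the highest of the 3 GRwt/wt libraries. The hexokinases that start the pathway were not called, with an LFC of -0.27 for Hk1 (adjusted p 0.301). Slc2a1, the glucose transporter, was at 80.4, 74.1 and 81.6 CPM against 41.2, 30.6 and 43.4 CPM (LFC -1.04, SE 0.19, adjusted p 0.00129). It fell short of the fold threshold without replicate 3 (LFC -0.96) and without both (LFC -0.93).

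For glycolysis, the windows of Pgam1 (phosphoglycerate mutase, plus strand, chr19:41911621-41911870) and Gapdh (minus strand, chr6:125165774-125166023) are shown, chosen in the same way. Capitals mark ACGTG in Pgam1 and TGTTCT, the reverse complement of AGAACA, in Gapdh.
Pgam1: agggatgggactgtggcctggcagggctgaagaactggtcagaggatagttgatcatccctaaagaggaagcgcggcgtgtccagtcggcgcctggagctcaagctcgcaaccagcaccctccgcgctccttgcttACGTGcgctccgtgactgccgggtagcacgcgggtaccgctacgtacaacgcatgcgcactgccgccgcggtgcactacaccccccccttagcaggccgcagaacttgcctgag
Gapdh: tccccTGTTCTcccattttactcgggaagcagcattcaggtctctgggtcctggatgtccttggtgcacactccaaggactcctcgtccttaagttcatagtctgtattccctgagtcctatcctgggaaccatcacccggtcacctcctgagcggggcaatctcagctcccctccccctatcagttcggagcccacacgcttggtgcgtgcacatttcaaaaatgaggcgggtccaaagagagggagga

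Of the 33 windows of 21 glycolytic genes, 13 held ACGTG (39.4%, against 16.6% of all windows), 8 held AGAACA (24.2%, against 16.1%) and 10 held CCAAT (30.3%, against 33.8%). In the 21 windows of the called genes, ACGTG and CCAAT were each found in 8 (38.1%). Pgam1 was at 119, 104 and 103 CPM in GRwt/wt and at 49.3, 43.3 and 47.2 CPM in GRL/L (LFC -1.22, SE 0.16, adjusted p 0.00017). Gapdh was at 1137, 803 and 784 CPM against 298, 289.8 and 309 CPM (LFC -1.60, SE 0.21, adjusted p 0.000187). The genotypes were separated for both.

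**Figure D3:**
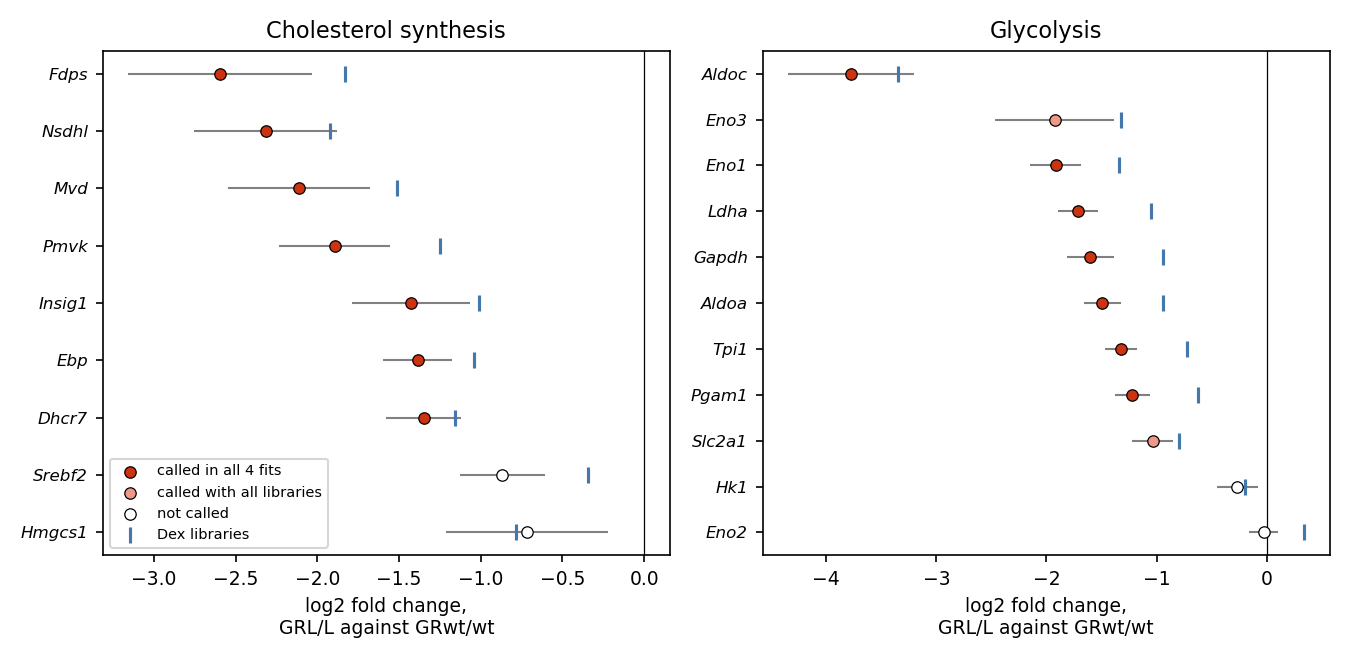
LFC of the genes of the cholesterol and glycolysis lists that are named in the text, GRL/L against GRwt/wt in vehicle, with 1 SE as a line. Fill marks the calls (called in all 4 fits, called with all libraries, or not called) and the blue tick is the LFC between the same genotypes in the Dex libraries. All circles lie below 0, from -3.77 for Aldoc to -0.03 for Eno2.

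Hypoxia-response genes had fewer calls (background 2.84% lower and 4.93% higher). Of 30 genes, 6 were called lower and 1 higher (median LFC -0.51), and 4 were lower in all 4 fits. The other fits had 8, 5 and 7 lower and 0, 2 and 0 higher calls. Higd1a, a mitochondrial protein induced by hypoxia, was at 33.5, 49 and 29 CPM in GRwt/wt and 12.9, 13.1 and 16.5 CPM in GRL/L (LFC -1.39, SE 0.21, adjusted p 0.000438). Ndrg1, a stress-response gene of the same list, was at 171, 149 and 104 CPM against 48.3, 46.9 and 59.7 CPM (LFC -1.45, SE 0.26, adjusted p 0.00124). Neither gene overlapped between genotypes. The gene called higher was Ppfia4 (LFC 1.06, adjusted p 0.0303), and it was not called without replicate 1 (adjusted p 0.0649).

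Part of the genes of fatty acid metabolism and amino-acid supply was also lower. Of 21 genes of fatty acid synthesis and storage, 6 were called lower and none higher (median LFC -0.54), and 4 were called in all 4 fits. The other fits had 4, 7 and 5 lower calls, and 1 higher call without replicate 3. Fads2, a fatty acid desaturase, was at 286, 190.1 and 142 CPM in GRwt/wt and 70.6, 98.3 and 64.6 CPM in GRL/L (LFC -1.40, SE 0.30, adjusted p 0.00344), and Fads1 had an LFC of -1.17 (SE 0.24, adjusted p 0.00249). Both were separated by genotype. Among 31 genes of amino-acid supply and the ATF4 stress response, 5 were called lower (median LFC -0.66, and -0.40 after the GC and length correction; 4, 6 and 5 in the other fits, with 1 higher call without replicate 3) and 3 in all 4 fits. These included Eif4ebp1, a brake on translation (LFC -1.20, SE 0.23, adjusted p 0.00181), and Chac1, which degrades glutathione (LFC -1.35, SE 0.29, adjusted p 0.00366). Of 239 solute carriers, 6 were called lower and 2 higher (background 2.84% and 4.93%), and the other fits had 10, 8 and 8 lower and 3, 10 and 6 higher calls. Slc2a6, a sugar transporter, had an LFC of -2.20 (SE 0.37, adjusted p 0.000783), and Slc25a1, the mitochondrial citrate carrier, one of -1.29 (SE 0.23, adjusted p 0.00103), and both were called in all 4 fits.

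Genes of the respiratory chain and the ribosome had smaller negative LFC values, and their calls depended on the libraries. Of 80 nuclear genes of oxidative phosphorylation, 77 had a negative LFC (median -0.77) and 9 were called lower, but only 1 was called without replicate 1, 26 without replicate 3 and 5 without both, and none in all 4 fits. The summed expression was 12520, 9480 and 7511 CPM in GRwt/wt and 5778, 6030 and 5722 CPM in GRL/L. The order of the GRwt/wt libraries was that of their rho with GC content. After the GC and length correction, 15 of the 80 genes were called lower (median LFC -0.61). Cox7a2, a subunit of cytochrome c oxidase, was at 117, 112 and 79.1 CPM against 47, 53.1 and 53.7 CPM (LFC -1.0, SE 0.13, adjusted p 0.000176). Of 83 cytosolic ribosomal protein genes, 81 had a negative LFC (median -0.69) and 3 were called lower (1, 5 and 2 in the other fits), close to the share of all genes (2.84%). The median was -0.45 without replicate 1, -0.76 without replicate 3, -0.52 without both and -0.49 after the GC and length correction. Their sum was 61670, 44870 and 40050 CPM in GRwt/wt and 30380, 32910 and 30800 CPM in GRL/L. Rpl13a was the member called in all 4 fits (LFC -1.29, SE 0.19, adjusted p 0.00029). None of the 9 mitochondrially encoded genes was called in any of the 4 fits, but 6 were called lower after the GC and length correction.

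Lower calls among contractile genes of the myofibroblast also depended on the libraries. Of 28 genes, 7 were called lower and 1 higher (median LFC -0.92), and lower calls numbered 3 without replicate 1, 9 without replicate 3 and 1 without both, with 1 higher call in each. Over all genes, 2.84% were called lower with all libraries, 2.08% without replicate 1 and 4.81% without replicate 3. The sum over the 28 contractile genes was 22120, 15450 and 13310 CPM in GRwt/wt and 9013, 10060 and 9407 CPM in GRL/L. Skeletal muscle markers were also highest in GRwt/wt replicate 1, with a sum over 26 genes (12 of them tested) of 276, 61.4 and 29.1 CPM in GRwt/wt and 19.4 to 32.3 CPM in GRL/L, and their part in these differences was not tested. Tagln (transgelin), which binds actin, was at 2819, 1550.2 and 853 CPM in GRwt/wt and 364, 478 and 356 CPM in GRL/L (LFC -2.12, SE 0.65, adjusted p 0.0259). It was not called without replicate 1 (LFC -1.58, adjusted p 0.0938). Acta2, smooth muscle actin, had an LFC of -1.93 (SE 0.74, adjusted p 0.0686). Tagln2 was called with all libraries (LFC -1.24, SE 0.18, adjusted p 0.000265) but had an LFC of -0.87 without both. The gene called higher in all 4 fits was Myh10, a non-muscle myosin, at 125, 234 and 254 CPM against 491, 515 and 519 CPM (LFC 1.31, SE 0.25, adjusted p 0.0015).

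Ccn2, Cryab, S100a4 and Smad6 were lower in all 4 fits. Ccn2, a matricellular protein induced by YAP and TGF-beta, was at 87.1, 68.8 and 51.4 CPM in GRwt/wt and 20.7, 22.5 and 28.4 CPM in GRL/L (LFC -1.53, SE 0.33, adjusted p 0.00323). Cryab, a small heat shock protein, was at 185, 169.8 and 51.3 CPM against 34.9, 38.5 and 26.5 CPM (LFC -2.02, SE 0.37, adjusted p 0.00125). The genotypes did not overlap for either gene, and the lowest GRwt/wt library of both was replicate 3. S100a4, a calcium-binding protein of motile fibroblasts, was at 129.8, 151 and 42 CPM in GRwt/wt and 13.8, 11 and 18.8 CPM in GRL/L (LFC -2.89, SE 0.56, adjusted p 0.00184). Over all genes, 2.84% were called lower and 4.93% higher. Without replicate 1 these shares were 2.08% and 3.81%, and without replicate 3 they were 4.81% and 12.2%. In their lists, Ccn2 was the lower call among 18 YAP and SRF targets (1 lower in each fit, 1 higher with all libraries and 2, 2 and 1 in the others) and Cryab was 1 of 3 lower among 15 heat shock genes (1, 3 and 2 in the other fits). Among 42 genes of TGF-beta and BMP signalling, 3 were called lower and 1 higher (1, 5 and 3 lower and 2, 2 and 3 higher in the other fits). Smad6, an inhibitor of BMP signalling, was lower in all 4 fits (LFC -1.37, SE 0.39, adjusted p 0.0181), but not after the GC and length correction (LFC -0.87, adjusted p 0.0842).

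The calls among imprinted genes were all higher in GRL/L with all libraries. Of 36 tested, 7 were called higher and none lower with all libraries (background 4.93% higher), and 5 were higher in all 4 fits. There were 7 higher calls without replicate 1, 11 higher and 1 lower without replicate 3 and 7 higher without both, and 7 higher and 3 lower after the GC and length correction (median LFC 0.47). The median LFC was 0.80 with all libraries, 0.85 without replicate 1, 0.78 without replicate 3 and 0.96 without both. The sum over the list was 11980, 9619 and 10140 CPM in GRwt/wt and 17570, 18270 and 15750 CPM in GRL/L, without overlap, and the GRL/L mean was 1.62 times that of GRwt/wt. In vehicle it was 9310 and 9611 CPM in the GRD/D libraries and 11680 to 12090 CPM in the GRD+L/D+L libraries. Meg3, a maternally expressed long non-coding RNA (ENSMUSG00000021268, chromosome 12, 109541001 to 109571726), was at 305, 235 and 362 CPM in GRwt/wt and 1529, 1836 and 1067 CPM in GRL/L (LFC 2.30, SE 0.33, adjusted p 0.000301). Rian, a transcript of the same cluster, had an LFC of 1.13 (SE 0.30, adjusted p 0.0128) and was below the fold threshold without replicate 1 (LFC 0.87) and after the correction (LFC 0.43, adjusted p 0.367). Of the paternally expressed genes, Peg3, a zinc-finger protein, was at 28, 181 and 330.4 CPM against 764, 1066 and 476 CPM (LFC 2.09, SE 0.59, adjusted p 0.0162), and GRwt/wt replicate 1 was far below the other 2. H19 (LFC 0.66, adjusted p 0.386), Igf2 (LFC 1.38, adjusted p 0.417) and Grb10 (LFC 0.22, adjusted p 0.612) were not called.

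Igf2r, the imprinted receptor that takes up insulin-like growth factor 2 and lysosomal enzymes (ENSMUSG00000023830, chromosome 17, 12682406 to 12769664), was at 829, 499.9 and 809 CPM in GRwt/wt and 1847, 1819 and 1651 CPM in GRL/L. Every GRL/L library lay above every GRwt/wt library, and the LFC was 1.31 (SE 0.19, adjusted p 0.000338). Airn, the non-coding RNA that overlaps it on the other strand, had an LFC of 1.83 (SE 0.38, adjusted p 0.00286). As the strandedness of the counting was not given, reads of this pair cannot be told apart. Igfbp5, which binds insulin-like growth factors, was at 1058, 686 and 1022 CPM against 3157, 2944 and 3632 CPM (LFC 1.81, SE 0.40, adjusted p 0.00424). Over all genes, 4.93% were called higher (3.81% without replicate 1 and 12.2% without replicate 3). Igf2r and Igfbp5 were the 2 of 19 genes of the IGF axis that were called, both in all 4 fits, and the other fits had 2, 4 and 3 higher calls.

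Feedback regulators of the ERK pathway held calls in the higher direction. Of 20 genes, 4 were called higher and none lower (median LFC 0.65; background 4.93% higher), and 3 were called in all 4 fits. The other fits had 5, 7 and 8 higher calls (background 3.81%, 12.2% and 5.54% higher), with 2 lower without replicate 3. Spry4, a Sprouty inhibitor of receptor tyrosine kinase signalling, was at 11, 7.41 and 7.16 CPM in GRwt/wt and 25.9, 19.9 and 25.9 CPM in GRL/L (LFC 1.49, SE 0.26, adjusted p 0.00105). Spry2 was at 28.8, 28.4 and 43.5 CPM against 78.5, 97 and 66.3 CPM (LFC 1.26, SE 0.33, adjusted p 0.0112), but was not called after the GC and length correction (LFC 0.68, adjusted p 0.19). Etv5, a transcription factor induced by ERK, was at 22.4, 14.2 and 21.1 CPM against 41.1, 32.2 and 49.3 CPM (LFC 1.09, SE 0.31, adjusted p 0.0179). The genotypes were separated for all 3. Dusp6, the phosphatase of ERK, was not called, and its groups overlapped (LFC 0.39, adjusted p 0.505).

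With all libraries, the calls among matrix glycoproteins, collagens, adhesion and guidance genes were all higher in GRL/L. Of 36 matrix proteases, inhibitors and crosslinkers, however, 1 was called higher and 3 lower (background 4.93% and 2.84%). Without replicate 1 these were 0 and 2, and without replicate 3 they were 5 and 3. Of 46 matrix glycoproteins and proteoglycans, 5 were called higher and none lower, 3 of them in all 4 fits (background 4.93% higher). The other fits had 8, 9 and 7 higher and 1, 1 and 2 lower calls, against 3.81%, 12.2% and 5.54% of all genes called higher. Nid1 (nidogen 1), a basement membrane protein, was at 927, 955 and 945 CPM in GRwt/wt and 2249, 2178 and 2140.0 CPM in GRL/L (LFC 1.22, SE 0.21, adjusted p 0.00105). Hspg2 (perlecan) was at 1434, 688 and 911 CPM against 2119.5, 2252 and 1923 CPM (LFC 1.05, SE 0.20, adjusted p 0.00144). Lama2, a laminin chain, was at 6.29, 11.9 and 20 CPM against 77.5, 84.7 and 69 CPM (LFC 2.59, SE 0.54, adjusted p 0.00275). These 3 were the ones called in all 4 fits, and none overlapped between the genotypes. After the GC and length correction Hspg2 was not called (LFC 0.45, adjusted p 0.194), and Nid1 was below the fold threshold (LFC 0.86). Of 41 collagens, Col11a1 was the only call with all libraries (LFC 1.45, SE 0.30, adjusted p 0.00265), and it was lost without both (LFC 0.72, adjusted p 0.0722). Collagens had 1 higher call without replicate 1, but 8 higher and 1 lower without replicate 3 and 5 higher and 1 lower without both, with medians of 0.49 (all libraries), 0.65, 0.62 and 1.10.

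Among 99 integrins, cadherins and other adhesion genes, 11 were called higher and none lower (median LFC 0.45; background 4.93% higher), 6 of them in all 4 fits, and the other fits had 13, 19 and 18 higher calls. After the GC and length correction the median was 0.01, with 7 higher and 2 lower calls. Itga8 (integrin alpha 8) was at 8.22, 30.6 and 20.7 CPM in GRwt/wt and 105, 114 and 65.1 CPM in GRL/L (LFC 2.25, SE 0.37, adjusted p 0.000724). Of 57 semaphorin, ephrin and other guidance genes, 8 were higher and none lower (median LFC 0.14), and 3 were called in all 4 fits. The other fits had 6, 12 and 6 higher calls (medians 0.43, 0.22 and 0.49), with 1 lower without replicate 3. Nrp1 (neuropilin 1), a receptor for semaphorins and VEGF, was at 26.3, 91.9 and 107 CPM against 231, 209 and 233 CPM (LFC 1.58, SE 0.32, adjusted p 0.0023). Slit3, a guidance ligand, was at 262, 178 and 314 CPM against 644, 688 and 460.0 CPM (LFC 1.25, SE 0.32, adjusted p 0.00987). Each of these 3 genes was separated by genotype, and Nrp1 was lowest in GRwt/wt replicate 1. Over all genes, 4.93% were called higher and 2.84% lower, with 3.81% and 2.08% without replicate 1. Without replicate 3 these shares were 12.2% and 4.81%. In Wnt signalling, 4 of 48 genes were called higher and 2 lower (5, 5 and 2 higher and 3, 4 and 3 lower in the other fits). Lrp6, the Wnt co-receptor, was higher in all 4 fits (LFC 1.66, SE 0.34, adjusted p 0.00248), and Wnt5a, a non-canonical ligand, was higher with all libraries (LFC 1.30, SE 0.20, adjusted p 0.000497) and just short of the fold threshold without both (LFC 0.96).

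The number of splicing factors called higher depended on both unusual libraries. Of 88 splicing factors, 11 were called higher and none lower with all libraries (background 4.93% higher), but 3 without replicate 1 (background 3.81% higher), 25 higher and 1 lower without replicate 3, and 13 without both. The median LFC was 0.35 with all libraries, 0.12 without replicate 1, 0.58 without replicate 3, 0.17 without both and 0.05 after the GC and length correction, which gave 7 higher and 3 lower calls. Srrm2, a scaffold of nuclear speckles (ENSMUSG00000039218, chromosome 17, 23790532 to 23824741), was at 126, 198 and 323 CPM in GRwt/wt and 584, 610.4 and 544 CPM in GRL/L. Its LFC was 1.43 (SE 0.22, adjusted p 0.000472) and 1.15 (adjusted p 0.00024) without replicate 1. Malat1, the non-coding RNA of nuclear speckles, was at 18.3, 188 and 261 CPM against 681, 635 and 631 CPM (LFC 2.06, SE 0.58, adjusted p 0.0161). Both were separated by genotype, with GRwt/wt replicate 1 the lowest. Of 351 zinc-finger genes named Zfp, 33 were called higher and 2 lower (median LFC 0.62; background 4.93% higher), against 16 and 1 without replicate 1 (median 0.29; background 3.81% higher), 79 and 2 without replicate 3 (median 0.88) and 29 and 2 without both (median 0.37). After the GC and length correction the median was 0.26. In all 4 fits, 12 Zfp genes were higher and 1 lower.

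**Figure D4:**
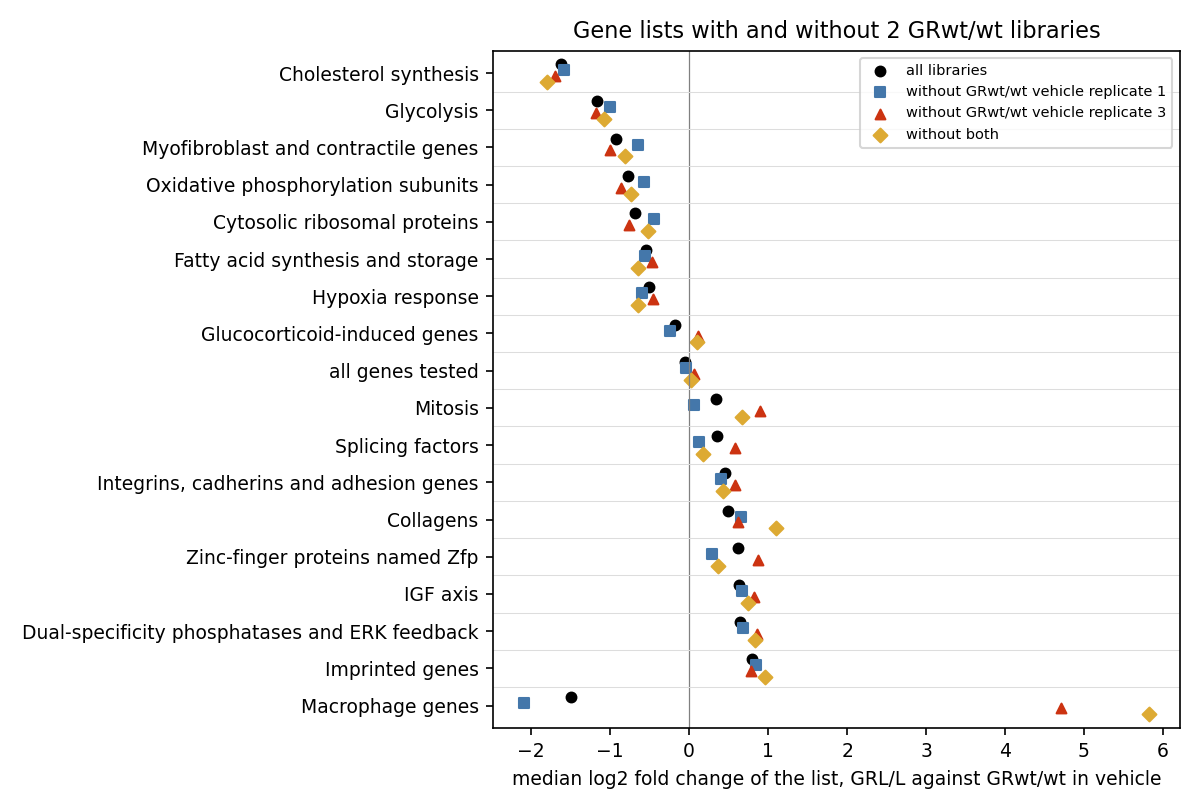
Median LFC, GRL/L against GRwt/wt in vehicle, of 17 gene lists and of all genes tested, 1 marker for each of the 4 fits. Cholesterol synthesis stayed between -1.59 and -1.79 and imprinted genes between 0.78 and 0.96, whereas macrophage genes went from -1.5 with all libraries to 5.82 without both GRwt/wt vehicle replicates 1 and 3.

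The largest rises among protein-coding genes called in all 4 fits, without overlap and with at least 5 CPM in GRL/L, were those of Kera, Agtr2, Nrk, Zim1, Gm38394 and Cdh4. Agtr2, the type 2 receptor of angiotensin (ENSMUSG00000068122, chromosome X, 21484544 to 21489164), was at 26.4, 79.1 and 66 CPM in GRwt/wt and 885, 839.9 and 337 CPM in GRL/L (LFC 3.59, SE 0.59, adjusted p 0.000724). Kera (keratocan), a proteoglycan of the cornea, was at 1.27, 3.6 and 4.08 CPM against 49, 56.3 and 10.3 CPM (LFC 3.68, SE 0.75, adjusted p 0.00258). In both genes GRL/L replicate 3 was well below replicates 1 and 2, though above every GRwt/wt library. Cdh4, a cadherin, was at 7.72 CPM in GRwt/wt replicate 1 and 0.805 and 1.04 CPM in the other 2, against 24.7, 27.5 and 11.3 CPM in GRL/L, and its LFC rose from 2.74 to 4.50 without replicate 1. Zim1, an imprinted zinc-finger gene next to Peg3, had an LFC of 3.06 (SE 0.83, adjusted p 0.0141). Gm38394 overlaps Zbed6 and Zc3h11a on the same strand, so its LFC of 2.97 is uncertain.

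The largest falls by the same rule were those of Aldoc, Pcp4l1, Msx2, S100a4, Fdps and Pcolce2. Msx2, a homeobox factor of limb and skull, was at 5.57, 12.2 and 1.13 CPM in GRwt/wt and 0.833, 0.7 and 0.724 CPM in GRL/L (LFC -3.05, SE 0.78, adjusted p 0.00963). It varied widely among the GRwt/wt libraries, and all 3 lay above GRL/L. Msx2 was 1 of the 4 genes called lower among 71 limb, trunk and craniofacial factors, none of which was called higher (4, 10 and 6 lower in the other fits, with 3 higher without replicate 3). Over all genes, 2.84% were called lower with all libraries and 2.08%, 4.81% and 2.77% in the other fits. Of 36 Hox genes, 2 were called lower and none higher (2, 1 and 1 lower in the other fits). Of 21 neural and Schwann cell genes 3 were lower (4, 2 and 3 in the other fits), with Tubb3, a neuronal tubulin, lower in all 4 fits (LFC -2.19, SE 0.42, adjusted p 0.00178). Pcolce2, an enhancer of procollagen processing, had an LFC of -2.52 (SE 0.68, adjusted p 0.0136).

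Calls differed with the length and the annotation class of genes. Protein-coding genes were split into quartiles of gene span, from start to end with introns. In the shortest quartile (0.26 to 10.61 kb), 55 genes were called higher and 187 lower. In the longest (60.66 to 2960.9 kb), 295 were higher and 35 lower. The same contrast was seen without both unusual libraries, with 72 higher and 173 lower in the shortest and 351 and 52 in the longest. After the correction for transcript GC content and length, the shortest quartile had 62 higher and 226 lower and the longest 259 and 120. By transcript GC content, the quartile with the least GC had 189 higher and 23 lower genes and that with the most GC had 43 and 173. Without replicate 1, these became 104 and 38, and 97 and 90. The dependence on GC content thus moved with GRwt/wt replicate 1, whose rho with GC was 0.684, and the part of this library in the dependence on span was tested only by leaving it out: without it, the shortest quartile had 54 higher and 106 lower and the longest 205 and 35.

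Transcripts annotated within other genes held a large share of higher calls. Of 283 genes of the class TEC (transcripts that the annotation holds to be unproven), 94 were called higher and none lower (33.2%, against 4.93% of all genes), with a median LFC of 1.32, and 47 were higher in all 4 fits. Higher calls numbered 67 without replicate 1, 125 without replicate 3 and 66 without both, and 68 after the correction for GC content and length. Of the 94, 86 overlapped another gene on the same strand, so their counts are uncertain. Of 42 sense intronic transcripts, all of which overlap a gene on their strand, 24 were called higher and 1 lower (median LFC 2.01), 15 of them higher in all 4 fits, and 20, 27 and 16 were higher in the other fits. Processed pseudogenes went the other way, with 45 of 331 lower (13.6%, against 2.84% of all genes) and 13 higher (median LFC -0.48). Their lower calls fell to 21 without replicate 1 and without both, and numbered 60 without replicate 3. They share sequence with their parent genes, which limits unique mapping. Gm4735, the one with the largest fall by the rule for named genes, was at 37.2, 32 and 29.4 CPM in GRwt/wt and 7.83, 6.3 and 8.64 CPM in GRL/L (LFC -2.11, SE 0.26, adjusted p 0.000146). Of 354 lincRNAs, 41 were higher and 10 lower, against 31 and 8, 60 and 14, and 27 and 9 in the other fits.

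**Figure D5:**
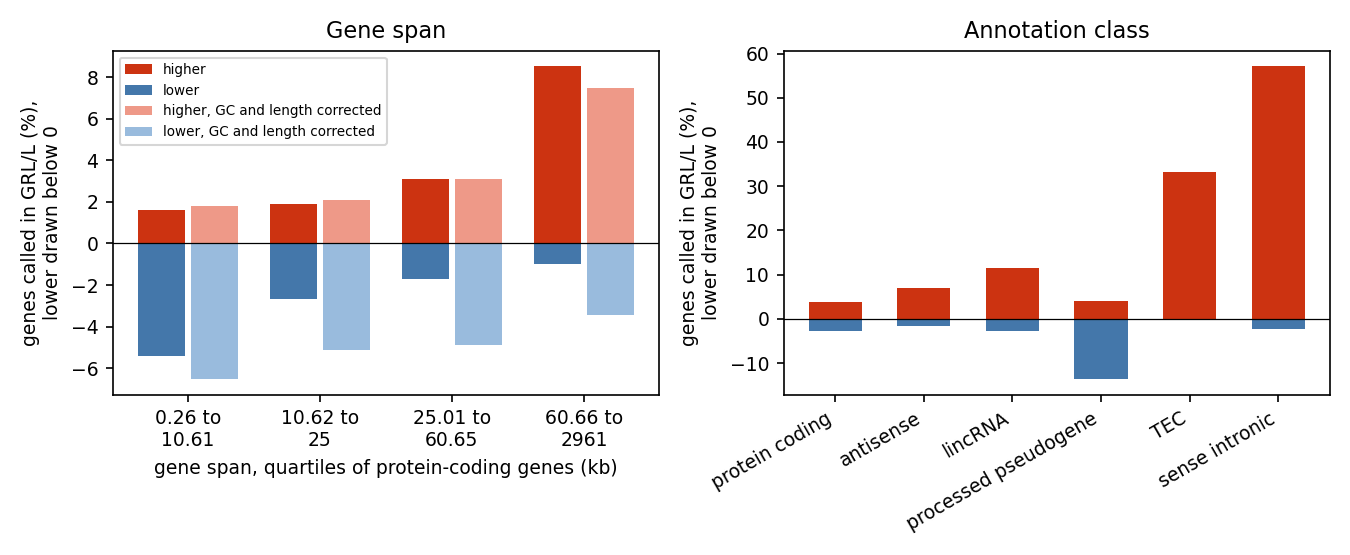
Percent of genes called higher (above 0) and lower (drawn below 0) in GRL/L vehicle against GRwt/wt vehicle. Left, quartiles of gene span of protein-coding genes, with and without the correction for GC content and length; right, annotation classes. Higher calls rose from 1.59% in the shortest to 8.52% in the longest quartile and reached 57.1% in sense intronic transcripts.

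Calls for the receptor and its known targets are given beside the share of all genes called. This share was 4.93% higher and 2.84% lower with all libraries, and 3.81% and 2.08% without replicate 1. Without replicate 3 it was 12.2% and 4.81%. Nr3c1, the gene of GR, whose level does not identify a point mutation, was at 4.08, 73.0 and 88.0 CPM in GRwt/wt and 136, 133 and 138 CPM in GRL/L. Every GRL/L library lay above every GRwt/wt library, and GRwt/wt replicate 1 was far below the other 2. Nr3c1 was not called with all libraries (LFC 1.30, SE 0.60, adjusted p 0.126), without replicate 1 (LFC 0.75, adjusted p 0.0858) or without both (LFC 0.91, adjusted p 0.117), but was called without replicate 3 (LFC 1.83, adjusted p 0.0495). It ranged from 44.5 to 81.3 CPM in the GRwt/wt Dex libraries and from 131 to 138 CPM in the GRL/L Dex libraries. Of 20 genes known to be induced by glucocorticoids, 1 was called higher and none lower in vehicle, and their median LFC was -0.18. There was 1 higher call without replicate 1 (median -0.24), 1 higher and 1 lower without replicate 3 (median 0.11), and none higher and 3 lower without both (median 0.10). Fkbp5, a co-chaperone of GR and a classical target, was at 28.9, 19.3 and 44.9 CPM in GRwt/wt and 25.3, 29.2 and 27.3 CPM in GRL/L, with overlapping groups (LFC -0.19, SE 0.24, adjusted p 0.594). Per1, a clock gene induced by glucocorticoids, had an LFC of 0.32 (SE 0.18, adjusted p 0.21). The called gene was Angptl4, an inhibitor of lipoprotein lipase that is also a target of PPARs and of hypoxia, at 77.3, 53.9 and 49.7 CPM against 256, 199.6 and 205 CPM (LFC 1.87, SE 0.56, adjusted p 0.0238). Its groups did not overlap, and it was not called without both (LFC 2.05, adjusted p 0.116). Of 21 steroid receptors, chaperones and coregulators, 3 were called higher with all libraries, none without replicate 1, 6 without replicate 3, 1 without both and none in all 4 fits. These were the coregulators Ncor1 (LFC 1.26, adjusted p 0.0305) and Ncoa2 (LFC 1.08, adjusted p 0.048) and the progesterone receptor Pgr (LFC 2.74, adjusted p 0.0315), which stood at 25.7 CPM in GRL/L replicate 2 and 4.61 and 4.03 CPM in the others.

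Genes near Nr3c1 on chromosome 18 were looked at separately, since both alleles of this region carry the edited gene. Over all genes tested, 3.2% were called in all 4 fits. Within 5 Mb on either side of Nr3c1, 136 genes were tested, with a median LFC of 0.26. Of these, 9 were called higher and 3 lower (background 7.78% in either direction). In all 4 fits, 6 were called, namely Spry4, Ankhd1, Pcdhb21, Cystm1, Pcdhb16 and Prelid2. Ankhd1 was at 3.31, 25.1 and 39.5 CPM in GRwt/wt and 74.4, 79.2 and 75.2 CPM in GRL/L, whereas Prelid2 was lower, at 7.39, 8.43 and 8.65 CPM against 3.89, 3.61 and 3.21 CPM.

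The macrophage genes of GRwt/wt replicate 3 decided the sign of the whole list. With all libraries all 30 genes had a negative LFC (median -1.5) and Cd14, a co-receptor for lipopolysaccharide, was called lower (LFC -2.29, SE 0.72, adjusted p 0.0298). Cd14 was at 33.4 CPM in GRwt/wt replicate 3 and between 1.94 and 3.64 CPM in the other 5 libraries. Without replicate 1, 2 of the 30 genes were called lower (median LFC -2.09). Without replicate 3, 24 of the 30 were called higher in GRL/L (median LFC 4.71), and without both, 15 were (median LFC 5.82). Lyz2, the lysozyme of myeloid cells, was at 496, 509 and 218 CPM in GRL/L vehicle, against 24.1, 7.62 and 3379 CPM in GRwt/wt vehicle. The GRL/L Dex libraries had macrophage sums of 515 to 1273 CPM and the GRwt/wt Dex libraries 31.9 to 165 CPM. Leaving out replicate 3 thus did not make the genotypes equal in macrophage genes, and the part of macrophage RNA in the other differences was not tested.

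Cell division and inflammatory lists had few or no calls with all libraries (background 4.93% higher and 2.84% lower). None of 40 mitosis genes, 25 p53 and senescence genes or 28 chemokines and cytokines was called, and 1 of 40 replication genes and 1 of 40 interferon-stimulated genes was higher. The smallest p among mitosis genes was that of Cenpe, a kinesin of the kinetochore (LFC 1.63, SE 0.72, adjusted p 0.107). Without replicate 3, where 12.2% of all genes were called higher and 4.81% lower, 9 mitosis, 7 interferon-stimulated, 2 replication and 2 chemokine and cytokine genes were called higher and 5 p53 and senescence genes lower. Without both, 3 p53 and senescence genes were lower, 1 interferon-stimulated gene was higher and 1 lower, and 1 replication and 1 chemokine or cytokine gene were higher. Without replicate 1, 1 p53 or senescence gene and 1 chemokine or cytokine gene were lower. Of 21 replication-dependent histone genes, whose messages mostly lack poly(A) tails, 2 were lower and both in all 4 fits (2, 7 and 5 lower in the other fits). Of 20 clock genes, Rora was higher (LFC 2.00, SE 0.52, adjusted p 0.0112) and Nfil3, a repressor of clock output, was lower at 25.2, 22 and 24.2 CPM against 9.38, 9.85 and 11 CPM (LFC -1.24, SE 0.22, adjusted p 0.00111), both in all 4 fits. The other fits had 1, 3 and 3 higher and 1 lower call each.

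The same genotypes were also compared in the Dex libraries, which share no library with the vehicle comparison but come from the same cultures per the design text, so that they are not independent of it. There, 408 genes were called (2.59%), 215 higher (1.37%) and 193 lower (1.23%) in GRL/L. Of the 1225 genes called in vehicle, 249 (20.3%) were called in the same direction with Dex, which is 61.0% of the genes called with Dex. Of the 504 called in all 4 vehicle fits, 180 (35.7%) were called with Dex in the same direction and none in the opposite, and 335 of the 337 higher and 166 of the 167 lower genes had the same sign. The median LFC of these genes was 1.79 in vehicle and 1.23 with Dex for the higher and -1.60 and -1.14 for the lower. The difference between both contrasts was called for 4 genes (0.0254%), namely Fkbp5, Per1, Wee1 and Zhx3. None of these 4 was called in vehicle, and each was higher in GRwt/wt with Dex than in any other of the 4 groups. Fkbp5 reached 349.9, 384 and 311 CPM in GRwt/wt Dex and stayed at 29, 30.5 and 29.5 CPM in GRL/L Dex.

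With Dex, the metabolic groups were again low in GRL/L, but 1 GRwt/wt library differed. Cholesterol genes had 9 lower calls (median LFC -1.23), glycolysis 4 (median LFC -0.77) and imprinted genes 5 higher calls (median LFC 0.21). GRwt/wt Dex replicate 2 had a cholesterol sum of 799.6 CPM, just below the GRL/L Dex libraries (818 to 1328 CPM), whereas replicates 1 and 3 had 2584 and 2890 CPM. Of the 17 cholesterol genes called in vehicle, 15 were within or below the GRL/L Dex range in this library and none in the other 2. The same was true of 5 of 6 fatty acid genes and 7 of 8 contractile genes, but of only 2 of 14 glycolysis genes and 1 of 4 ERK feedback genes. Of the 504 genes called in all 4 fits, GRwt/wt Dex replicate 2 reached the GRL/L Dex range for 78 (15.5%), replicate 1 for 18 (3.6%) and replicate 3 for 8 (1.6%). The calls with Dex changed with the GRwt/wt library left out. Cholesterol genes had 18 lower calls without replicate 2 (median LFC -1.62), but 1 without replicate 1 (median LFC -1.03) and 1 without replicate 3 (median LFC -0.89). Glycolysis had 7 (median LFC -0.87), 4 (median LFC -0.68) and 2 (median LFC -0.66) lower calls in the same order, and imprinted genes 3, 4 and 1 higher calls. The labels do not say whether equal numbers in vehicle and Dex mark the same culture, and the lowest cholesterol sum of the GRwt/wt vehicle libraries was 2377 CPM.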

How the data were processed

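The authors deposited 1 table of raw counts, that is, whole numbers of reads per Ensembl gene for each library. Total RNA had been made into TruSeq libraries and run on a NovaSeq sequencer. Reads had been mapped to mouse mm10 (GRCm38) by HISAT2 2.1.0 and counted by featureCounts 2.0.0 (versions from the submitters' processing notes). Strandedness and annotation release are not given in the sources used here, which makes genes that overlap others, and near-identical copies, uncertain. Symbols and 1-based coordinates came from GENCODE M21 for 55227 of 55487 identifiers.

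In R 4.3.3, all 23 libraries (16452539 to 23117080 counts) entered the quasi-likelihood fit of edgeR 4.0.16, with 1 mean per group, TMM scaling, filterByExpr (15748 genes) and a prior count of 0.125. The SE was the size of the LFC divided by the root of F. No replicates matched within counting noise. Each culture of a group came from its own mouse, so the spread within a group is that between cultures. The fit had no term for the culture, so vehicle and Dex libraries of the same culture entered as independent. The shared spread thus rests on fewer cultures than the 23 libraries, and p-values may be too small. On simulated counts for this comparison (15444 genes), 63% of 100 genes changed by 1.5 on the log2 scale and 88% of 100 changed by 3 were called. There were 5 false calls. Libraries were simulated as independent, without the GC trend of GRwt/wt vehicle replicate 1 or the macrophage genes of replicate 3. The recovery thus need not hold for the real libraries. Alternatives were leaving out libraries, RLE and upper-quartile scaling, no filter or at least 10 counts in every library, fewer groups in the fit, the replicate number as a block, a prior count of 2, removal of trends with GC content and length of transcripts (mgcv 1.9.3), the sex of the embryo as a covariate, DESeq2 1.42.0, limma-voom with sample weights (limma 3.58.1) and adjusted p alone.

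The comparison, gene lists, motifs and named genes were chosen with earlier results of these data known. By rule, the text names Nr3c1 and, from genes called in all 4 fits without overlap and at 5 CPM or more on average in the higher genotype, the 6 largest rises and 6 largest falls of protein-coding genes and 2 of each of other biotypes. It also names up to 3 rises and 3 falls with the smallest p per list, or the smallest p where none was called, and the 3 called genes whose LFC moved most without each unusual library. Other genes were named after their values were seen, among them Nsdhl, Mvd, Hmgcs1, Srebf2, Insig1, Eno1, Eno2, Hk1, Pgam1, Gapdh, Tagln, Acta2, Peg3, Rian, H19, Igf2, Grb10, Dusp6, Malat1, Fkbp5, Per1, Wee1, Zhx3, Lyz2 and genes near Nr3c1. Promoter windows came from RefSeq (GRCm38.p6), and those on chromosome 18 were not used here. Some genes that the rule names are not reported here.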

Additional observations from a re-analysis of the deposited data

Results flagged for a closer look

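The difference between GRL/L and GRwt/wt was not the same in vehicle as in Dex for 4 named genes, by the interaction term of the edgeR fit over all 23 libraries with Benjamini-Hochberg adjustment. The LFC in vehicle less that in Dex was 3.37 for Fkbp5 (adjusted p 0.000356), 1.71 for Per1 (adjusted p 0.0148), 1.4 for Wee1 (adjusted p 0.0148) and 1.66 for Zhx3 (adjusted p 0.0148).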

How the results depend on the processing

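The number of genes called in vehicle (1225) fell to 705 in a fit with only the GRL/L and GRwt/wt libraries. In the fit of the 6 vehicle libraries alone edgeR called 0 genes, also 0 in the cholesterol and glycolysis lists, while 2756 genes passed an unadjusted p of 0.05. DESeq2 (1582) and limma-voom with sample weights (1058) were run on all libraries. Without GRwt/wt vehicle replicate 1, the vehicle fit called 674 genes (added after seeing the data). Adjusted p alone gave 3628 genes. Leaving out single libraries gave 794 to 2677 calls, with 794 when GRL/L vehicle replicate 2 was left out, 796 for replicate 1, and 2677 for GRwt/wt vehicle replicate 3. The cause was not tested, apart from the smaller number of libraries in these fits. In the Dex libraries, DESeq2 called 778 genes in place of 408. Leaving out single Dex libraries gave 148 (GRL/L replicate 2) to 476 (GRwt/wt replicate 2) calls, with 160 without GRwt/wt replicate 3, 183 and 231 without GRL/L replicates 1 and 3 and 227 without GRwt/wt replicate 1. Glycolysis had 9 calls in place of 14 with the GC and length correction without GRwt/wt vehicle replicates 1 and 3, and cholesterol synthesis 9 in place of 17 with only the GRL/L and GRwt/wt libraries without these replicates (both added after seeing the data).

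Equal replicate numbers did not mark deviations shared by the genotypes in vehicle (r across genes -0.034, -0.206 and -0.225). With the replicate block, 1296 genes were called in vehicle and 379 with Dex, collagens had 4 calls in place of 1, and Cd14, Cox7a2 and Pgr were no longer called.

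Beyond the losses given in the report, the GC and length correction ended the calls of Pcdhb16 (LFC 0.46) and Pcdhb21 (0.49), and brought Fads1, Pgam1, Rpl13a, Slc25a1, Slc2a1, Tagln2, Nrp1, Ncoa2 and Ppfia4 below the fold threshold (-0.89 to -0.70 and 0.94 to 1.00).

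The sign of the LFC changed for 5 of 94 named genes. Without GRwt/wt vehicle replicates 1 and 3, Cd14 was at 0.40, Fkbp5 at 0.52, Eno2 at 0.10 and Lyz2 at 5.75. With only the GRL/L and GRwt/wt libraries besides, these were 0.36, 0.48, 0.06 and 5.72, and with the GC and length correction 0.47, 0.58, 0.25 and 5.79 (Hk1 0.03). Limma-voom gave 0.09 for Eno2, 0.10 for Fkbp5 and 3.34 for Lyz2. Eno2 was at 0.32 with the correction alone, 0.03 with at least 10 counts and 0.01 with DESeq2. The vehicle fit without GRwt/wt replicate 1 gave 0.04 for Eno2 and for Hk1. Leaving out single libraries gave -0.08 to 0.07 for Eno2, -0.44 to 0.23 for Fkbp5, -0.40 to 0.05 for Hk1 and -2.07 to 4.73 for Lyz2. Of 2061 values of named genes under 22 alternatives, 267 were no longer called, 15 became called and 28 changed sign.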

Other observations

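Each library's deviations from its group mean were compared between vehicle and Dex, across genes. In GRL/L, every vehicle library deviated most like the Dex library of the same number (r 0.289, 0.608 and 0.594). In GRwt/wt this held for replicate 1 (r 0.537), while vehicle replicate 2 deviated most like Dex replicate 3 (r 0.524) and vehicle replicate 3 most like Dex replicate 2 (r 0.38), with 0.0127 and -0.0449 for the equal numbers. Genes in such a correlation are not independent of each other, and deviations within a group of 3 are tied to each other.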
